A study of Mus musculus with 3 samples.

Results

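The dual-specificity MAP kinase phosphatases are a family of 10 genes here (Dusp1, Dusp2, Dusp4, Dusp5, Dusp6, Dusp7, Dusp8, Dusp10, Dusp14 and Dusp16), chosen by gene symbol from the 55536 annotated gene entries, and all 10 were found. They were measured by total RNA-seq of RNA bound to chromatin, depleted of ribosomal RNA, in bone-marrow-derived macrophages (BMDM, primary cells matured in culture from marrow precursors) of the mouse strain C57BL/6J that were exposed to lipid A at 100 ng/ml for 90 minutes. There was 1 group of 3 libraries, which the labels number as biological replicates, started from 1 µg (replicate 1), 250 ng (replicate 2) and 500 ng (replicate 3) of RNA. All 3 libraries carry the same donor label, age and sex were not recorded, and no genotype other than the strain is given. No unstimulated sample was part of the series, so every level below describes stimulated cells and none is a response to lipid A.

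Mitogen-activated protein (MAP) kinases are switched on by phosphorylation of a threonine and a tyrosine in their activation loop, and the dual-specificity phosphatases switch them off by removing both phosphates. The family has nuclear enzymes encoded by inducible genes (Dusp1, Dusp2, Dusp4 and Dusp5), cytoplasmic enzymes that prefer the kinase ERK (Dusp6 and Dusp7) and enzymes that prefer the stress kinases JNK and p38 (Dusp8, Dusp10 and Dusp16), while Dusp14 is a small enzyme without the MAP kinase-binding region of the others. In macrophages, Toll-like receptors, one of which detects lipid A, activate these kinases, and Dusp1 is known there for limiting p38 activity and cytokine production.

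Depth was 11277198, 24965749 and 19794886 expected counts in replicates 1, 2 and 3, of which 7715311, 10036048 and 9964310 fell in protein-coding genes. Macrophage marker genes were present: 7 of 10 were called above the bound defined below and 0 below it, with summed levels of 606 to 1148 TPM (transcripts per 1000000 transcripts, a level per transcript length). Markers of 7 other cell types summed to 6.13 to 7.33 TPM over 31 genes. Of these 31, 5 passed the filter on low counts, 0 were called above, 2 were called below, and 13 had no count in any library. In bulk RNA, fewer cells of a type and less RNA per cell cannot be told apart.

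Dusp1 and Dusp2 stood far above the typical expressed gene, Dusp16, Dusp5, Dusp4 and Dusp7 were not called either way, and Dusp14, Dusp8 and Dusp10 lay below it. Dusp6 had too few counts to be tested. Levels are given as log2(TPM + 1) relative to the typical gene, that is, the median over the 10530 tested protein-coding genes of each library, which was 5.5, 3.7 and 4.93 TPM in replicates 1, 2 and 3. A gene was called above or below when its level lay beyond a bound of 1 log2 unit, by limma's treat test with Benjamini-Hochberg adjustment over all 13434 genes whose expected count averaged 10 or more. Of the 9 phosphatase genes tested, 2 were called above and 3 below, while 21.3% of all tested genes were called above and 21.3% below. The median level was -0.06 over the 9 genes and -0.21 over all genes tested. With a pseudocount of 1 the scale has a floor: a gene listed at 0 TPM in all libraries, such as Dusp21, has a level of -2.50 ± 0.24 (SD, n = 3).

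**Figure D1:**
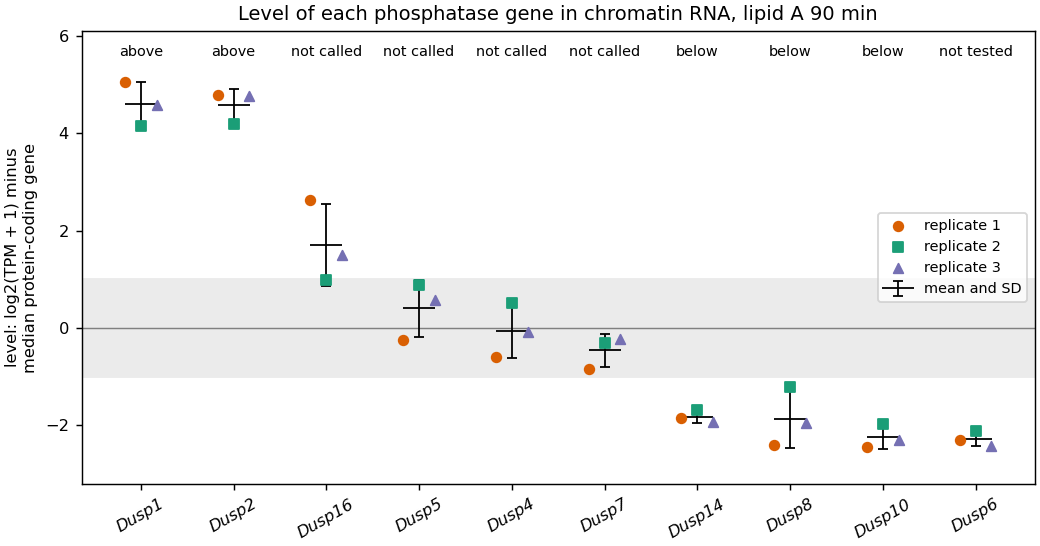
Level of the 10 phosphatase genes, in log2(TPM + 1) minus the median tested protein-coding gene of the same library, with 1 point per replicate and the mean and SD of 3 libraries. The grey band is the bound of 1 log2 unit on either side of the typical gene; Dusp1 and Dusp2 average 4.60 and 4.58, and Dusp14, Dusp8 and Dusp10 lie between -1.82 and -2.24.

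Among the nuclear enzymes, Dusp1 (ENSMUSG00000024190.7, mm10 chr17:26505590-26562128, minus strand), which encodes MKP-1 and acts on p38 and JNK as well as ERK, had 215, 82.4 and 141 TPM in replicates 1, 2 and 3, from 4155, 3143 and 4181 expected counts. All 3 libraries were more than 4 log2 units above the typical gene, and the mean level was 4.60 ± 0.45 (SD, n = 3; limma treat, adjusted p = 2.75e-05). Dusp2 (ENSMUSG00000027368.6, chr2:127336159-127338376, plus strand), the phosphatase PAC-1 of activated blood cells, had 178, 84.4 and 161 TPM and a level of 4.58 ± 0.34 (limma treat, adjusted p = 1.87e-05). Dusp1 and Dusp2 could not be ordered: the difference was 0.02 ± 0.23 log2 units, with Dusp1 the higher in 1 of 3 libraries.

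The other nuclear enzymes were much lower. Dusp5 (ENSMUSG00000034765.6, chr19:53529109-53542431, plus strand), a phosphatase specific for ERK, had 4.47, 7.70 and 7.79 TPM in replicates 1, 2 and 3 and a level of 0.40 ± 0.59. Dusp4 (ENSMUSG00000031530.6, chr8:34807297-34819894, plus strand), the enzyme MKP-2, had 3.30, 5.69 and 4.59 TPM and a level of -0.06 ± 0.55. Both were lowest in replicate 1, and neither was called (limma treat, adjusted p = 1.00 for each).

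Of the cytoplasmic ERK phosphatases, only Dusp7 had counts enough for the test. Dusp7 (ENSMUSG00000053716.9, chr9:106368632-106375724, plus strand) had 2.63, 2.79 and 4.06 TPM in replicates 1, 2 and 3 and a level of -0.46 ± 0.33 (limma treat, adjusted p = 1.00). Dusp6 (ENSMUSG00000019960.8, chr10:99263231-99267489, plus strand), known as MKP-3, had 8, 6 and 5 expected counts, which is 0.32, 0.09 and 0.11 TPM. These counts lie above the 3 counts that a count of 0 allows, so RNA of Dusp6 was detected in each library. Dusp9, the other member of this branch in mammals and not among the 10 genes, had 0.03, 0 and 0 TPM.

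The enzymes that act on JNK and p38 were spread from a level of 1.71 for Dusp16 to -2.24 for Dusp10. Dusp16 (ENSMUSG00000030203.17, chr6:134715468-134792625, minus strand), known as MKP-7 and active on JNK, had 39.2, 8.34 and 15.9 TPM in replicates 1, 2 and 3. Replicate 1 was far above the other two libraries, and the level of 1.71 ± 0.84 missed the call (limma treat, adjusted p = 0.0686). Without replicate 2 the level was 2.06 and was called above (limma treat, adjusted p = 0.0176), and an edgeR count model called it too, at 2.07 (adjusted p = 0.0123). Without replicate 1 the level fell to 1.26 and was not called (limma treat, adjusted p = 0.140). Nor was it called without replicate 3, at 1.80 (limma treat, adjusted p = 0.0988).

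Dusp8 (ENSMUSG00000037887.11, chr7:142079490-142095843, minus strand), a phosphatase known mainly from brain and heart, had 0.22, 1.02 and 0.54 TPM in replicates 1, 2 and 3, from 14, 59 and 38 expected counts. Its level was -1.86 ± 0.60 (limma treat, adjusted p = 0.0169). The call was lost without replicate 3 (level -1.83, limma treat, adjusted p = 0.0672) and with the median of all tested genes as the typical gene (level -1.65, adjusted p = 0.0607). Dusp10 (ENSMUSG00000039384.8, chr1:184013302-184075636, plus strand), known as MKP-5, had 0.19, 0.20 and 0.20 TPM, from 7, 14 and 11 expected counts. It was the lowest gene of the family that was tested, at -2.24 ± 0.25 (limma treat, adjusted p = 0.0010), close to the floor of the scale. Since its TPM hardly differed between libraries, this SD mostly reflects the typical gene, as for Dusp21 at 0 TPM (SD 0.24). With no minimum count, which lowers the typical gene, the Dusp10 call was lost (level -1.29, limma treat, adjusted p = 0.106).

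Dusp14 (ENSMUSG00000018648.15, chr11:84048041-84069261, minus strand), the small enzyme known as MKP-6, had 0.81, 0.47 and 0.55 TPM in replicates 1, 2 and 3, from 14 expected counts in each library. Its level was -1.82 ± 0.13 (limma treat, adjusted p = 0.0036). This call was also lost without replicate 3 (level -1.77, adjusted p = 0.0529).

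In the order of mean levels, neighbours were taken as apart where the order held in all 3 libraries and the mean difference exceeded its SD; an exact sign-flip permutation test of 3 pairs cannot give a p below 0.25. By this rule 5 of 9 neighbouring pairs were apart. Dusp2 exceeded Dusp16 by 2.87 ± 0.62 log2 units, Dusp5 exceeded Dusp4 by 0.46 ± 0.17, Dusp4 exceeded Dusp7 by 0.40 ± 0.36, Dusp7 exceeded Dusp14 by 1.36 ± 0.35, and Dusp8 exceeded Dusp10 by 0.38 ± 0.36. Dusp16 and Dusp5 were in order in 3 of 3 libraries, but their difference of 1.31 ± 1.42 was smaller than its SD. Dusp14 and Dusp8 (0.04 ± 0.51) and Dusp10 and Dusp6 (0.03 ± 0.16) were not apart. The place of Dusp7 depended on the quantification. In the authors' second quantification, made without an alignment file, Dusp7 had 29.5, 9.13 and 16.9 TPM in replicates 1, 2 and 3. This was above Dusp4 (4.13, 4.19 and 4.18 TPM) and Dusp5 (6.58, 6.30 and 7.81 TPM) in each library. The other pairs taken as apart kept their order there in each library.

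Among the 3 protein-coding genes whose levels lay closest to those of Dusp1 over the 3 libraries, by Euclidean distance, were Slamf7 (0.19 log2 units, a receptor of immune cells) and Swap70 (0.20, a signalling protein that binds actin). For Dusp2 the 3 closest were Socs3 (0.13, an inhibitor of cytokine signalling), Ccl2 (0.15, a chemokine that attracts monocytes) and Jak2 (0.18, a tyrosine kinase of cytokine receptors). Socs3 had 174, 81.0 and 148 TPM in replicates 1, 2 and 3, and Slamf7 had 238, 87.4 and 149.8 TPM. Likeness over 3 libraries is a match of level more than of pattern.

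Between libraries, counts normalised for composition (log2 of TMM-normalised CPM, counts per 1000000 counts) gave an order of spread that depended on the scaling. Dusp14, Dusp2 and Dusp1 had SDs of 0.11, 0.27 and 0.29 over the 3 libraries, and 7.28%, 32.1% and 35.4% of tested genes varied less. For Dusp14, with 14 expected counts in each library, the SD reflects the scaling alone, and counts that low carry counting error. Dusp16, Dusp4, Dusp5 and Dusp8 had SDs of 0.75, 0.76, 0.79 and 0.89, and 84.3%, 84.9%, 86.4% and 91.0% of tested genes varied less. Dusp10 and Dusp7 lay between them, with SDs of 0.34 and 0.43. With scaling by library size alone, the SDs of Dusp14, Dusp2 and Dusp1 were 0.53, 0.62 and 0.78, those of Dusp4, Dusp5 and Dusp8 were 0.28, 0.31 and 0.44, and that of Dusp16 was 1.25. Dusp4, Dusp5 and Dusp8 thus varied more than Dusp1, Dusp2 and Dusp14 with TMM factors and less without them, while Dusp16 had a high spread on both scales.

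Replicate 1 was placed differently for these genes. Dusp4 had 2.90, 4.42 and 3.70 log2 CPM in replicates 1, 2 and 3, Dusp5 had 3.17, 4.69 and 4.30, and Dusp8 had -0.01, 1.76 and 1.09, so that replicate 1 was the lowest for each. Dusp16 had 6.89, 5.40 and 5.98 log2 CPM, with replicate 1 the highest. With scaling by library size alone, Dusp16 had 170, 30.5 and 60.4 CPM and Dusp4 had 10.5, 15.5 and 12.3 CPM, so the opposite placing of replicate 1 held there too. For Dusp7 (9.00, 7.99 and 9.72 CPM) and Dusp10 (0.63, 0.56 and 0.56 CPM) replicate 1 was not the lowest on that scale. The starting amount of RNA differed between all 3 replicates, so amount and replicate cannot be told apart.

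**Figure D2:**
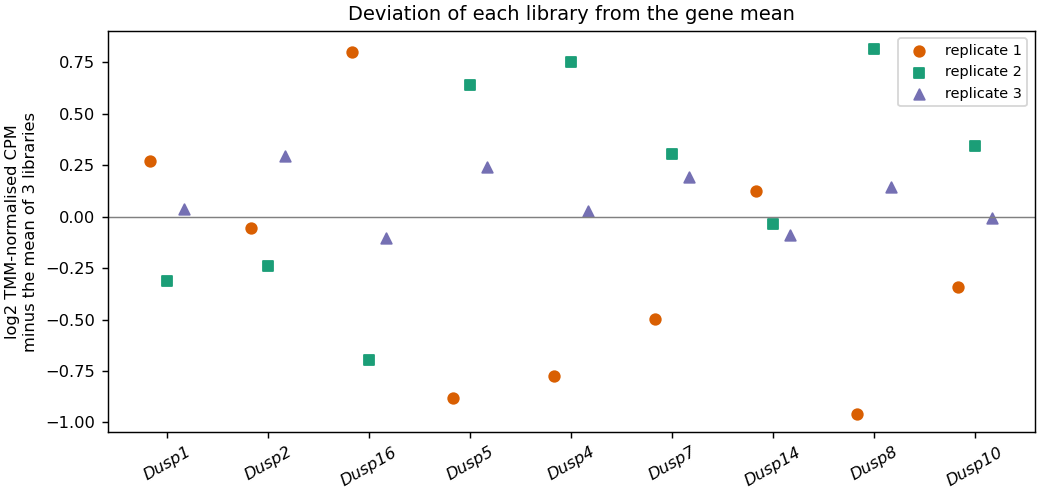
Deviation of each library from the gene's mean over the 3 libraries, in log2 TMM-normalised CPM, for the 9 tested phosphatase genes. Replicate 1 (orange circles) is the lowest library for Dusp5, Dusp4, Dusp7, Dusp8 and Dusp10 and the highest for Dusp1, Dusp16 and Dusp14.

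The annotation lists 34 isoforms of the 10 genes: 22 protein-coding, 6 processed transcripts, 4 typed as retained intron and 2 as targets of nonsense-mediated decay. A retained-intron isoform holds as exon a stretch that another isoform splices out. RNA not yet spliced holds the same stretch, so in this fraction it cannot be told apart from these isoforms. Only Dusp1 (2 isoforms), Dusp2 (1) and Dusp16 (1) have one, so no retained-intron share can be given for the other genes.

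Most of the Dusp1 signal was assigned to isoforms that keep an intron. The retained-intron isoforms Dusp1-203 and Dusp1-204 had 105, 38.6 and 65.7 TPM and 105, 34.9 and 61.7 TPM in replicates 1, 2 and 3. The spliced protein-coding isoform Dusp1-202 had 4.90, 8.96 and 13.6 TPM, the lowest value being in replicate 1, where the gene total was highest. Retained-intron isoforms thus held 97.5%, 89.1% and 90.1% of the Dusp1 TPM, or 92.3% ± 4.6 (SD, n = 3). In expected counts, which do not favour short isoforms, they held 96.9%, 86.5% and 87.7%.

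For Dusp2 the signal was shared more evenly. The retained-intron isoform Dusp2-202 had 121, 46.4 and 87.4 TPM in replicates 1, 2 and 3, against 57.0, 38.0 and 73.3 TPM for the protein-coding Dusp2-201. Its share was 68.0%, 55.0% and 54.4% of TPM, but 45.2%, 30.9% and 30.8% of expected counts, since Dusp2-202 is the shorter isoform (756 against 1617 bases). For Dusp16, the retained-intron isoform held 4.31%, 4.92% and 5.23% of TPM. This isoform, Dusp16-206, is 629 bases long, while the introns of Dusp16-201 total 72049 bases. Reads that map to no annotated isoform do not count, so this share does not measure the unspliced RNA of the whole gene.

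The background for these shares is high in this fraction. Among 5821 genes with a retained-intron isoform and a mean of at least 1 TPM, the median share was 52.6%, 42.7% and 41.8% of TPM in replicates 1, 2 and 3, so replicate 1 was the highest there as well. The Dusp1 share exceeded that of 98.6%, 97.8% and 98.3% of these genes, the Dusp2 share that of 73.3%, 67.9% and 68.0%, and the Dusp16 share that of 3.69%, 4.83% and 4.71%. By TPM, Dusp1 therefore lay near the top of this distribution in every library, Dusp2 in its upper part and Dusp16, with the limit given above, near the bottom. In expected counts the median share was 36.4%, 26.8% and 26.4% in replicates 1, 2 and 3. The Dusp2 share was 45.2%, 30.9% and 30.8% on that scale, for which ranks were not computed.

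**Figure D3:**
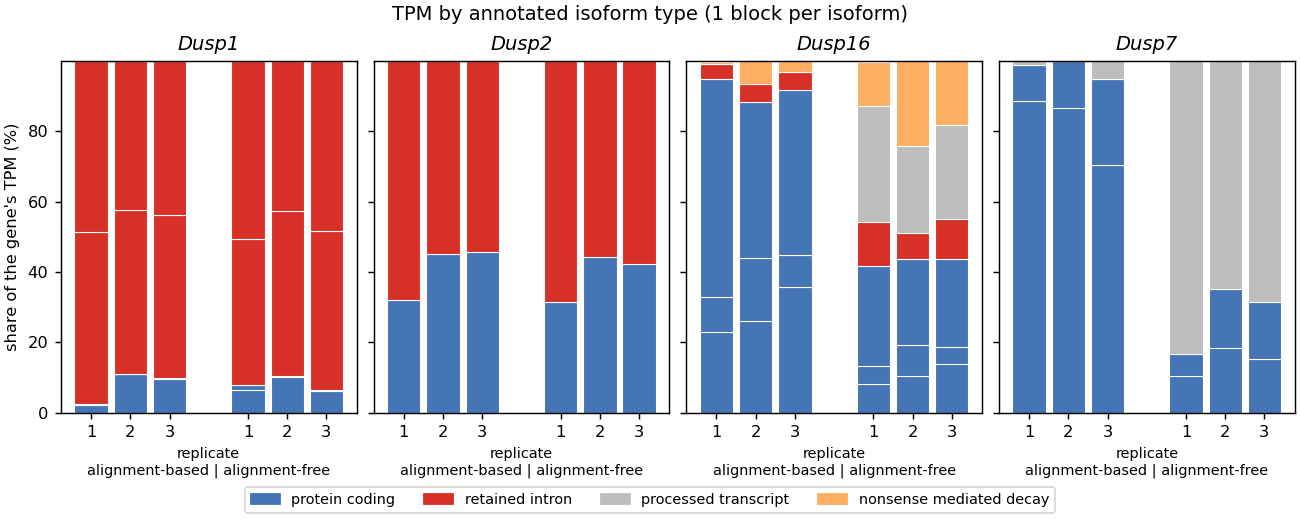
Share of the gene's TPM (%) held by each annotated isoform of Dusp1, Dusp2, Dusp16 and Dusp7 in the 3 replicates, coloured by isoform type, with the alignment-based values left and the alignment-free values right. Retained-intron isoforms hold 89.1% to 97.5% of Dusp1 and 54.4% to 68.0% of Dusp2 in the alignment-based values, and the processed transcripts of Dusp16 and Dusp7 (grey) hold a large share only in the alignment-free values.

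The introns concerned are short. Dusp1-203 keeps intron 2 of Dusp1-202, 369 bases at mm10 chr17:26507205-26507573, and Dusp1-204 keeps intron 3, 334 bases at chr17:26506651-26506984. Dusp2-202 keeps intron 2 of Dusp2-201, 350 bases at chr2:127336899-127337248. Each begins with GT and ends with AG on the sense strand, the ends of a standard intron. Their edges are shown because reads across them separate these isoforms from the spliced ones, though not from RNA not yet spliced. Capitals mark intron and lower case exon, 5′ to 3′ on the gene's strand.
Dusp1 intron 2, 5′ edge (chr17:26507534-26507593, minus): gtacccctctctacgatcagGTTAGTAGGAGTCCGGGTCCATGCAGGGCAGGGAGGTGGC
Dusp1 intron 2, 3′ edge (chr17:26507185-26507264, minus): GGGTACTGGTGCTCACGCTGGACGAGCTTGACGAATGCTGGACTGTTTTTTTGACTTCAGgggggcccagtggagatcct
Dusp1 intron 3, 5′ edge (chr17:26506945-26507004, minus): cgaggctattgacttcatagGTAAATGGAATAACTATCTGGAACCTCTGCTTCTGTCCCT
Dusp1 intron 3, 3′ edge (chr17:26506631-26506710, minus): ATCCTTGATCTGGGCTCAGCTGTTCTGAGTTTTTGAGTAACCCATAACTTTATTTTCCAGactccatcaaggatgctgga
Dusp2 intron 2, 5′ edge (chr2:127336879-127336938, plus): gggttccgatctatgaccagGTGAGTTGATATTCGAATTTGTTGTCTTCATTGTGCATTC
Dusp2 intron 2, 3′ edge (chr2:127337189-127337268, plus): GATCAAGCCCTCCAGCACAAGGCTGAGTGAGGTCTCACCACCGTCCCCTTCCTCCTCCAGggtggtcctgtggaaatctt

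The G and C content was 50.95% in intron 2 of Dusp1, 46.41% in intron 3 of Dusp1 and 47.43% in intron 2 of Dusp2. The genes differ widely in intron length. From first to last exon the main protein-coding isoform spans 2930 bases in Dusp1 and 2218 in Dusp2, the shortest spans of the family, and 4258 in Dusp6, 7093 in Dusp7, 12598 in Dusp4, 13323 in Dusp5, 15783 in Dusp8, 20761 in Dusp14, 41256 in Dusp10 and 77153 in Dusp16. Some genes share an exon pattern: exon 3 is 220 bases long in Dusp1, Dusp2, Dusp4 and Dusp5, Dusp8 and Dusp16 each have 7 exons with an exon 3 of 139 bases, and Dusp6 and Dusp7 have 3 exons. Dusp10, grouped above with Dusp8 and Dusp16, has 4 exons with an exon 3 of 372 bases.

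**Figure D4:**
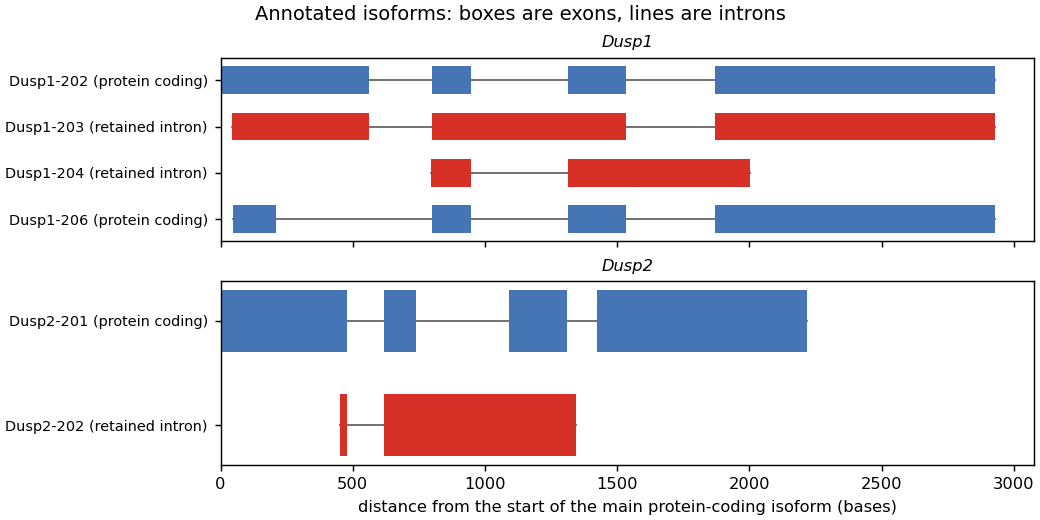
Exons (boxes) and introns (lines) of the Dusp1 and Dusp2 isoforms, by distance in bases from the start of the main protein-coding isoform, 5′ to 3′. Dusp1-203 and Dusp1-204 each join a pair of neighbouring exons through an intron of 369 and 334 bases, and Dusp2-202 through an intron of 350 bases; 2 isoforms of Dusp1 that start far upstream are not drawn.

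Counting protein-coding isoforms alone, in every gene, changed the top of the order. Dusp1 then had 5.34, 8.96 and 13.9 TPM in replicates 1, 2 and 3 and Dusp2 had 57.0, 38.0 and 73.3 TPM, so that Dusp2 exceeded Dusp1 in each library. The level of Dusp2 was 4.06 and still called above (limma treat, adjusted p = 1.39e-05), Dusp16 was called above at 2.37 (adjusted p = 0.0132), and Dusp1, at 1.57, was not (adjusted p = 0.0864). Dusp10 was the 1 gene still called below (level -1.47). On this measure 2 of 9 genes were called above and 1 below, while 21.4% of 10515 genes were called above and 7.03% below. The typical gene itself was lower by 0.78 log2 units on this measure, so levels are to be read against that shift. This measure was chosen after the isoform shares had been seen.

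By alignment, the leading isoform of Dusp16 was Dusp16-204, a protein-coding isoform of 3305 bases that spans the 5′ part of the locus, with 24.3, 3.71 and 7.42 TPM in replicates 1, 2 and 3. The full-length Dusp16-201 had 8.99, 2.18 and 5.66 TPM. Dusp16-204 thus held 62.0%, 44.4% and 46.8% of the gene's TPM, and replicate 1 was the highest library for both isoforms. Dusp4 and Dusp5 have 1 annotated isoform each. For Dusp8 and Dusp14 the split between isoforms differed between libraries at 14 to 59 counts per gene: Dusp14-202 held 100% of the TPM in replicates 1 and 3 and 0% in replicate 2.

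Each library was also quantified by the authors without an alignment file, and the 2 tables placed most phosphatase genes alike. The paired difference in level, alignment-based minus alignment-free, lay between 0.10 and 0.80 log2 units for 7 of 9 genes. The exceptions were Dusp16 (-0.27 ± 0.03) and Dusp7 (-1.55 ± 0.46). By limma treat with a bound of 1 log2 unit, 0 of 9 were called different; 1, Dusp7, had an unadjusted p under 0.05 (0.0112, adjusted p = 0.305). With the alignment-free values alone, Dusp7 (level 1.79, limma treat, adjusted p = 0.0044) and Dusp16 (2.68, adjusted p = 0.00036) were called above beside Dusp1 and Dusp2, and Dusp10 alone was called below, Dusp8 (-1.53) and Dusp14 (-1.22) having lost the call. These levels use a typical gene over genes averaging 10 or more alignment-free counts, whereas the paired differences use the same genes on both sides. The 2 measures therefore differ: Dusp1 was at 4.49 here and 4.60 by alignment, with a paired difference of 0.80. The new calls are thus not differences between quantifications alone. No share of all genes called was computed for the alignment-free levels. By the paired difference over 13427 genes, 0.633% were called higher and 1.9% lower in the alignment-based table.

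The Dusp7 values differed most in 1 short isoform. Dusp7 had 2.63, 2.79 and 4.06 TPM by alignment and 29.5, 9.13 and 16.9 TPM without it in replicates 1, 2 and 3. The processed transcript Dusp7-202, 270 bases long, had 0 TPM in each library by alignment and 24.6, 5.91 and 11.6 TPM without it. For the protein-coding Dusp7-201 the values were 2.33, 2.41 and 2.85 TPM by alignment and 3.07, 1.67 and 2.60 TPM without it. Dusp7-203, also protein-coding, had 0.27, 0.37 and 0.99 TPM by alignment and 1.85, 1.55 and 2.70 TPM without it. Likewise Dusp16-205, a processed transcript of 553 bases, had 0 TPM by alignment and 31.0, 2.88 and 7.50 TPM without it. In the alignment-free values Dusp16-205 held 32.9%, 24.9% and 26.5% of the gene's TPM in replicates 1, 2 and 3. Dusp16-204 held less in each library, at 28.4%, 24.4% and 25.0%. The retained-intron share of Dusp1 was 92.0%, 89.5% and 93.4% in the alignment-free values, so the high share was found in both tables. The shares there were 68.5%, 55.7% and 57.7% for Dusp2, and 12.6%, 7.35% and 11.5% for Dusp16, higher than by alignment.

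**Figure D5:**
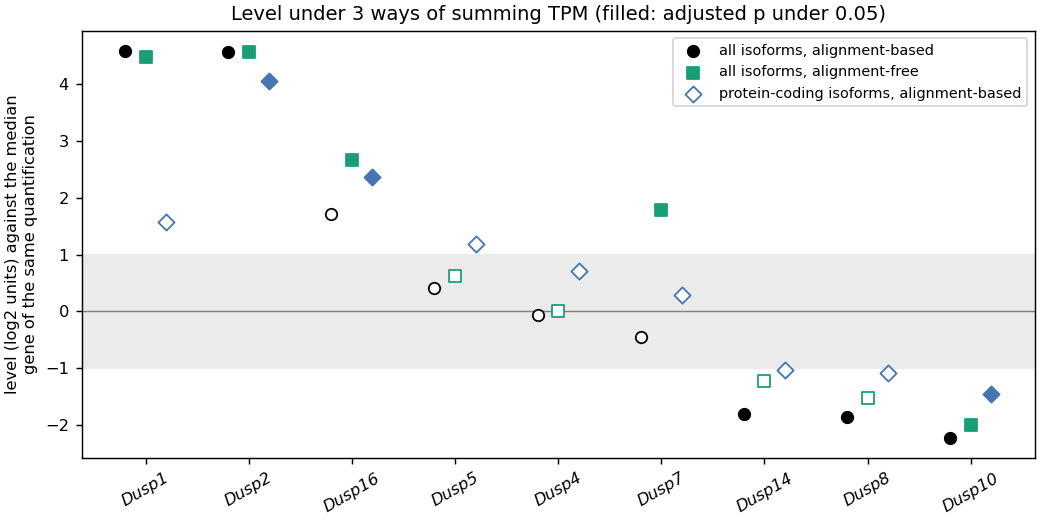
Mean level of the 9 tested phosphatase genes, in log2 units against the median gene of the same quantification, from all isoforms by alignment, all isoforms without alignment, and protein-coding isoforms by alignment. Filled symbols passed the test. The alignment-free reference is the median over genes that passed the count minimum in that quantification. Dusp1 drops to 1.57 when only protein-coding isoforms are counted, and Dusp7 is at -0.46 by alignment and 1.79 without it.

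Genes that overlap on the other strand limit some values, since whether counting used the strand is not given in the sources used here. The antisense gene Gm36328 lies within Dusp16 and had 14.7, 4.51 and 10.2 TPM from 46, 22 and 42 counts in replicates 1, 2 and 3. The antisense gene AC137853.2 overlaps the start of Dusp5 and had 0, 5.07 and 6.24 counts, against 142, 466 and 369 for Dusp5. In both cases the counts of the neighbour were small beside those of the phosphatase gene. Ergic1, a protein-coding gene, overlaps the far upstream end of Dusp1 and had 683, 669 and 577 counts in replicates 1, 2 and 3. Of the Dusp1 isoforms, only Dusp1-201 and Dusp1-205 reach that end, and both had 0 TPM by alignment in each library.

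Sequence 250 bases before to 50 bases after the annotated start (RefSeq, GRCm38.p6) was at hand for 9 of the 10 genes, all but Dusp4. The windows of the high genes Dusp1 and Dusp2 and of the low gene Dusp8 are shown. Capitals mark the cyclic AMP response element TGACGTCA, the sequence bound by CREB family factors, and its shorter form TGACG on either strand (CGTCA when read on the other strand); the full element reads the same on both strands and contains 2 overlapping short forms.
Dusp1 (chr17:26508423-26508722, minus): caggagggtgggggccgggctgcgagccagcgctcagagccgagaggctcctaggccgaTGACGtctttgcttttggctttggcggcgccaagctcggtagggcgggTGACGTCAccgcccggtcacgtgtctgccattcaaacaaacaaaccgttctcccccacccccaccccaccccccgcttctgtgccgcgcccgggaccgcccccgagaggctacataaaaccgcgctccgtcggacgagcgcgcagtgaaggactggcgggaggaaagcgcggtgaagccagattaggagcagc
Dusp2 (chr2:127335909-127336208, plus): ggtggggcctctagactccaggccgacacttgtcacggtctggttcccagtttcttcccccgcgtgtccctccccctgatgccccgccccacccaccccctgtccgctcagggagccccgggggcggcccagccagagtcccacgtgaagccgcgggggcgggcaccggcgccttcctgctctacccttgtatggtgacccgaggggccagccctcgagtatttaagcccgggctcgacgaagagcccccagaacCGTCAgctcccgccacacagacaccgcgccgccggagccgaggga
Dusp8 (chr7:142095235-142095534, minus): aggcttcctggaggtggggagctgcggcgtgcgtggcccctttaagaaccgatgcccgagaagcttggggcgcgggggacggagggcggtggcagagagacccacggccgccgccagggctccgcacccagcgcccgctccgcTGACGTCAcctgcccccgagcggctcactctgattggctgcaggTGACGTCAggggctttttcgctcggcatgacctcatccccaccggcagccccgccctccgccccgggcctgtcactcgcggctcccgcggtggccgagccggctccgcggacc

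The full element occurred in the Dusp1 window (1 match) and the Dusp8 window (2 matches), and in 1.79% of all 32851 windows. The short form was present in Dusp1 (3 matches), Dusp2 (1), Dusp5 (1), Dusp8 (4) and Dusp16 (1), and in 20.8% of all windows. The letters GGG and CC with 5 bases of any kind between them, a loose form of the binding sequence of NF-kB, were found on either strand, overlapping matches included, in 50.8% of all windows, 4 times in Dusp2, 2 times each in Dusp1, Dusp5, Dusp6 and Dusp7, 1 time each in Dusp10 and Dusp14, and not in Dusp8 or Dusp16. TATAAA, searched on both strands, was in 13.6% of all windows and in none of the 9. The full element was thus present in the windows of 1 gene called above and 1 gene called below.

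The kinases that these phosphatases act on and the kinases above and below them were counted in 7 pathway lists. These lists also hold other phosphatases, feedback inhibitors and 9 genes for factors known to act on Dusp1 transcription or on its mRNA. Of 69 genes, 51 were tested, 26 were called above and 4 below by limma treat, while 21.3% of all tested genes were called in each direction; the counts by list that follow stand against the same share. When genes needed an average of 100 counts, the typical gene was 1.07 log2 units higher and 11 of 40 were called above. The share of all tested genes called was not computed for that setting, so 11 of 40 has no background. Of the MAP kinases, 2 of 7 tested were called above, close to that share, and 0 below. Mapk14, encoding p38 alpha, was called above with 46.8, 45.1 and 47.0 TPM in replicates 1, 2 and 3 and a level of 3.06 ± 0.21. Mapk8, encoding JNK1 (0.04 ± 0.48), and Mapk11, encoding p38 beta (-0.01 ± 0.41), were at the level of the typical gene.

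Of the MAP kinase kinases, 5 of 6 tested were called above and 0 below. Map2k1 (2.84 ± 0.29) and Map2k2 (2.63 ± 0.42), which activate ERK, were the highest by TPM, followed by Map2k3 (2.58 ± 0.40), which activates p38, Map2k4 (2.40 ± 0.46), which activates JNK, and Map2k5 (1.49 ± 0.28), which activates ERK5. Map2k7, the other activator of JNK, was not called (0.76 ± 0.22). Of the kinases that MAP kinases activate, 8 of 10 tested were called above and 0 below, with Mapkapk2 (3.78 ± 0.10) and Mapkapk3 (3.50 ± 0.26), both targets of p38, at the top. Mknk2 (-1.08 ± 0.40) and Rps6ka1 (1.27 ± 0.67), which encode kinases that ERK activates, were the lowest by TPM and were not called.

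Other phosphatases and feedback inhibitors were mixed. Of 17 other dual-specificity phosphatase genes, 7 were tested, and Dusp11, which encodes an RNA phosphatase, was called above (3.40 ± 0.58), while Dusp18 (0.81, 0.26 and 0.23 TPM in replicates 1, 2 and 3) and Dusp28 (-1.70 ± 0.29) were called below; Styx, a pseudophosphatase, was at 0.66 ± 0.40. Of 8 phosphatases of other families that act on MAP kinases or their activators, 6 were tested and 3 called above: Ppm1b (3.03 ± 0.15), Ppp2ca (1.94 ± 0.51) and Ppm1a (1.78 ± 0.32). Ptpn7 (-1.30 ± 0.17) and Ppm1d (-1.32 ± 0.28) were the lowest of these and were not called.

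Of 8 inhibitors of ERK signalling, 6 were tested. Errfi1, an inhibitor of the EGF receptor (3.39 ± 0.36), and Spred1, an inhibitor of Ras signalling (3.06 ± 0.79), were called above, and Spry1 (-2.03 ± 0.34) and Spry2 (-1.46 ± 0.17), which encode Sprouty proteins, were called below. Of 9 genes for factors known to act on Dusp1 transcription or on its mRNA, 5 were called above and 0 below. Crtc2, a coactivator of CREB, stood at 3.78 ± 0.21, Zfp36, whose protein tristetraprolin promotes mRNA decay, at 3.07 ± 0.52, Nr3c1, the glucocorticoid receptor, at 2.97 ± 0.13, Creb1 at 2.41 ± 0.75 and Atf1 at 1.45 ± 0.20. Crem (-1.40 ± 0.36) and Zfp36l1 (-0.71 ± 0.24) were the lowest by TPM and were not called.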

How the data were processed

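Total RNA-seq of chromatin-fraction RNA from 3 replicate libraries of 1 group was used; group, replicate number and RNA amount came from the labels. The deposited gene and transcript tables hold expected counts, effective lengths and TPM made by the authors from alignments (mm10, GENCODE M21), with column names that RSEM writes, per the file headers. A second deposited transcript table holds TPM that the authors made without an alignment file; its column names are of the kallisto kind. The sources used here do not give the aligner, versions, strand setting or treatment of reads with several matches. TPM is scaled over all entries of a file, so 1 abundant RNA moves all others, and reads that map to no annotated isoform, as in most introns, do not count.

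Of 81881 entries, 55536 annotated genes were kept, and 55450 had an alignment-free value (transcripts summed). Levels were log2(TPM + 1) minus the median tested protein-coding gene, for 13434 genes whose expected count averaged 10 or more, tested with limma 3.58.1 treat (R 4.3.3, bound 1 log2 unit, Benjamini-Hochberg 0.05 over all genes). The spread used TMM factors (edgeR 4.0.16; prior count 2), for which expected counts were rounded to whole numbers, with DESeq2 1.42.0 size factors as an alternative. The count model was edgeR's quasi-likelihood fit with effective length and the library's typical gene as offset. Because edgeR's own test against a bound does not accept a design of 1 group, its p-values were computed by hand from that fit, at the nearer bound. Tables, motif searches and figures were made with Python 3.11.15, pandas 2.3.3 and matplotlib 3.10.9. The scripts were tested on simulated data. A count of 0 allows 3 counts, or 0.266, 0.120 and 0.152 CPM in replicates 1, 2 and 3, for counting error only, as no molecular identifiers are recorded and reads may repeat a molecule. Nothing says that the replicates came from separate cultures or animals, so p-values measure the spread between these libraries, which may be technical.

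The genes, lists and tests were chosen with earlier results of these data known. All family genes are named; in other lists, the 2 highest and 2 lowest by mean TPM among those tested and every called gene where 5 or fewer were called in a direction; for the 2 highest family genes, the 3 nearest protein-coding genes. Some genes that this rule selects are not reported here. Alternatives were other pseudocounts, count minimums, references, scalings, quantifications and the count model, each replicate left out, and protein-coding isoforms only.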

Additional observations from a re-analysis of the deposited data

How the results depend on the processing

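Dusp1 and Dusp2 were called above under every alternative run except that Dusp1 lost its call with protein-coding isoforms only (1.57), an alternative chosen after seeing the data. Family genes called above numbered 4 with alignment-free values (Dusp7 and Dusp16 added) and 2 to 3 with a replicate left out. Family genes called below numbered 0 with a minimum mean count of 100, where the low genes are not tested, 0 with no minimum count, 1 with alignment-free values, 1 with protein-coding isoforms only, and 1 to 3 with a replicate left out (1 without replicate 3, 2 without replicate 2, where Dusp10 fell under the count minimum). Pathway genes called above numbered 11 with a minimum of 100 and 23 to 26 with a replicate left out. Those called below numbered 7 with a pseudocount of 0.1, 7 with TPM rescaled over protein-coding genes, 0 with protein-coding isoforms only, and 2 to 6 with a replicate left out. Apart from protein-coding isoforms only, the share of all tested genes called was not computed for these alternatives. The counts therefore show how the calls moved and have no background of their own. Alternatives that change the gene set, the reference genes or the TPM values move the typical gene itself. The move was 1.07 log2 units with a minimum of 100, -0.95 with none and -0.21 with all tested genes as reference. With the main count minimum but other TPM values, it was 0.13 for posterior mean TPM and -0.78 for protein-coding isoforms. Alignment-free values change both the genes tested and the TPM, and the move was -0.14.

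Dusp16 was called above with a pseudocount of 0.1 (1.88), no minimum count (2.66), alignment-free values (2.68), all tested genes as reference (1.92), rescaled TPM (1.86), the edgeR count model (2.07), without replicate 2 (2.06) and with protein-coding isoforms only (2.37). It was not called with a minimum of 100 (0.64), with posterior mean TPM (1.55), without replicate 1 (1.26) or without replicate 3 (1.80). Levels near the typical gene changed sign: Dusp4 (-0.06) to 0.89 with no minimum, 0.012 with alignment-free values, 0.15 with all tested genes, 0.033 with the count model, 0.72 with protein-coding isoforms, and -0.35 to 0.22 with a replicate left out; Dusp5 (0.40) to -0.67 with a minimum of 100; and Dusp7 (-0.46) to 0.49 with no minimum, 1.79 with alignment-free values and 0.29 with protein-coding isoforms. The difference between quantifications of Dusp14 (0.10) was -0.21 with a pseudocount of 0.1. The median share of the isoform leading by alignment was 70.5%, and 52.5% for the same isoforms with alignment-free values. Where no reason is given, the cause was not tested. No paired analysis was possible because there was 1 group. Depth limits Dusp6, Dusp10 and Dusp14, with 5 to 14 counts per library.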
